A study of Mus musculus with 20 samples.

Results

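Col1a1, Col1a2, Col3a1, Col6a5, Ogn, Dcn, Lum, Slc6a13, Slc22a6 and Igf2 were listed as genes of meningeal fibroblasts and of collagen, although Col6a5 did not vary with the other 9 in these data. Their symbols were matched to the Ensembl identifiers of a table of read counts from mouse cerebellum. All 10 were found among the 55401 genes of the table, of which 21897 are protein-coding in GENCODE release M21 (build GRCm38).

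The study sequenced polyadenylated RNA from the cerebella of 20 mice, with 1 cerebellum in each library, to follow an RNA interference treatment of spinocerebellar ataxia type 7 (SCA7). All mice had the C57BL/6J background. The early libraries, labelled 9 w, come from 3 wild-type (WT) mice given AAV-shA4 and from 3 untreated WT mice. The late libraries, labelled 25 w, come from 5 SCA7 140Q/5Q knock-in mice given AAV-shA4, from 5 such mice given AAV-shSCR and from 4 untreated WT mice. An SCA7 mouse carries 1 mutant Atxn7 allele coding for 140 glutamines and 1 normal allele coding for 5. AAV-shA4 carries a short hairpin RNA against expanded CAG repeats, and AAV-shSCR a scrambled one. Both were delivered into the blood in the PHP.eB capsid, with the hairpin under the H1 promoter and an eGFP reporter under the CMV promoter, so that expression was not limited to 1 cell type. Untreated mice received saline without vector. No WT mouse received AAV-shSCR and no SCA7 mouse was left without vector, so genotype and vector cannot be told apart in a comparison of SCA7 with WT mice. The labels do not say whether the weeks are those of age or those since injection. The study counts its times from the injection, and its count is that of the labels for the early mice but not for the late mice. According to the study the late mice were males, and the sex of the early mice is not given.

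The reads counted on genes numbered 36245752 to 39208298 in AAV-shA4-treated WT mice and 47455917 to 49212593 in untreated WT mice at 9 w. They numbered 31465586 to 44708557 in AAV-shA4-treated SCA7 mice, 33758498 to 40621179 in AAV-shSCR-treated SCA7 mice and 39036803 to 54570503 in untreated WT mice at 25 w. Levels are given as CPM, the count of a gene relative to the total of its library, scaled with TMM factors over all 20 libraries.

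The cerebellum is covered by the pia and arachnoid, thin membranes whose fibroblasts secrete collagen and leucine-rich proteoglycans, and similar fibroblasts lie along its larger vessels. Type I collagen is a triple helix of the chains made by Col1a1 and Col1a2, type III collagen is a homotrimer of the Col3a1 chain, and decorin (Dcn), lumican (Lum) and osteoglycin (Ogn) bind to or regulate collagen fibrils. Arachnoid and pial cells also carry transporters that move small molecules between cerebrospinal fluid and blood, and they are a source of insulin-like growth factor 2 in the adult brain.

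The libraries carried the markers of the labelled tissue. The 8 genes of a list of cerebellar neurons, among them Pcp2 and Calb1 of Purkinje cells and Gabra6 of granule cells, summed to 4390 to 6830 CPM, with Car8 as the most abundant at a mean of 1500 CPM. Meningeal fibroblast transcripts were present beside them in each mouse. The 10 genes summed to 141 to 232 CPM, a range of 1.65 times between the lowest and the highest mouse. All of a list of 35 other genes of leptomeningeal and perivascular fibroblasts were detected, summing to 602 to 741 CPM, and 2 of them, Slc22a2 and Dpep1, were below 1 CPM on average. Gjb6, the most abundant of these at a mean of 90.4 CPM, is also a gene of astrocytes. Of a list of 7 bone and cartilage genes, Ibsp and Bglap, made by bone-forming cells, were below 1 CPM on average. The list summed to 26.6 to 38.5 CPM, with Dmp1 as the most abundant at a mean of 13.1 CPM.

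To set the genes beside each other, counts were divided by the length of exon sequence not shared with another gene of the same strand. This length takes in the exons of all annotated transcripts of a gene, 12426 bp for Col1a2, 5838 bp for Dcn and 2566 bp for Ogn. The order given here depends on that choice. In CPM alone, Col1a2 (mean 47.4) and Dcn (36.9) stood above Ogn (20.7). The study divided by the median transcript length of a gene instead. Ogn was the most abundant per length, with a mean of 8.07 CPM per kb over the 20 mice, followed by Dcn with 6.32 and the GABA transporter gene Slc6a13 with 5.58 CPM per kb. Ogn lay above Dcn in 20 of 20 mice, and Dcn above Slc6a13 in 17 of 20. The type I collagen genes Col1a2 and Col1a1 came next with 3.82 and 3.42 CPM per kb, before Slc22a6 with 3.06, but the order of these 3 differed between the time points. Col1a2 was above Col1a1 in 2 of 6 mice at 9 w and in 13 of 14 at 25 w, and Col1a1 above Slc22a6 in 6 of 6 and in 4 of 14. Lum at 2.35 CPM per kb was above Col3a1 at 0.983 CPM per kb in 20 of 20 mice, and Col6a5 at 0.0632 CPM per kb was the lowest of the 10 genes in each mouse. The place of Igf2 is not known, because how reads on the bases it shares with another gene were counted is not stated. It was at 2.16 CPM per kb over its unshared length, next to Lum, and at 0.802 CPM per kb over its whole exonic length, above Col3a1 in 9 of 20 mice.

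**Figure D1:**
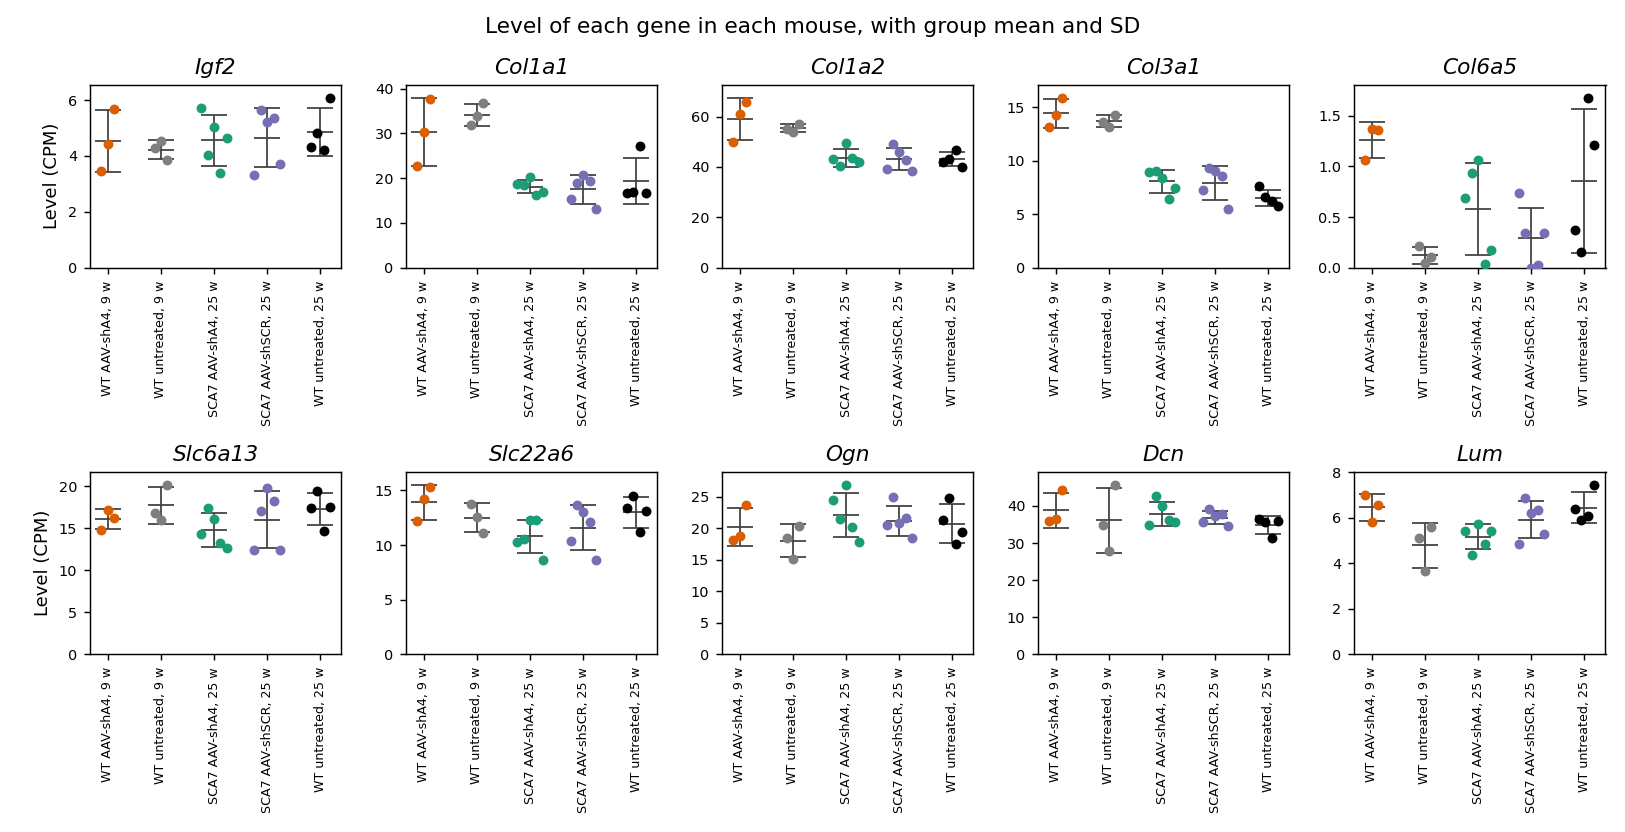
Each panel shows 1 gene, with its level in CPM (from 0) on the vertical axis and the 5 groups of mice on the horizontal axis. Points are mice, and the horizontal marks are the group mean and 1 SD to either side (n = 3, 3, 5, 5 and 4). Col3a1 lies between 13.1 and 15.8 CPM in the 6 mice at 9 w and between 5.52 and 9.29 CPM in the 14 mice at 25 w, whereas Col6a5 is spread over much of its range within each late group.

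Col3a1, Col1a2 and, with 1 mouse as an exception, Col1a1 were lower in the late than in the early mice. Col3a1 (ENSMUSG00000026043; chromosome 1, from 45311538 to 45349706) was measured at 13.1, 14.3 and 15.8 CPM in AAV-shA4-treated and at 13.6, 13.1 and 14.3 CPM in untreated WT mice at 9 w. In untreated WT mice at 25 w it was at 7.58, 6.58, 6.20 and 5.78 CPM. SCA7 mice had 8.97, 9.02, 8.38, 6.41 and 7.46 CPM with AAV-shA4 and 7.23, 9.29, 8.99, 8.59 and 5.52 CPM with AAV-shSCR. All 14 late mice were below all 6 early mice, and the 3 late groups overlapped. Between untreated WT mice at 25 w (6.53 ± 0.768 CPM, SD, n = 4) and at 9 w (13.7 ± 0.602 CPM, SD, n = 3), Col3a1 changed by −1.06 on the log2 scale (standard error 0.096, edgeR adjusted p = 0.000164). The edgeR p-values here set a difference between groups against the spread between mice of a group.

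Col1a1 (ENSMUSG00000001506; chromosome 11, from 94936224 to 94953042) codes for the chain present in 2 copies in type I collagen. Its level was 22.8, 30.3 and 37.8 CPM with AAV-shA4 and 31.9, 33.8 and 36.9 CPM without treatment in WT mice at 9 w. At 25 w the untreated WT mice had 16.6, 17.0, 27.2 and 16.7 CPM. Replicate 3 of this group stood far above the other 3 mice, and it is the late mouse that reached into the range of the early ones. SCA7 mice had 18.7, 18.4, 20.2, 16.3 and 16.9 CPM with AAV-shA4 and 15.3, 18.9, 20.8, 19.3 and 13.1 CPM with AAV-shSCR, below all 6 early mice. Between untreated WT mice at 25 w (19.4 ± 5.22 CPM, SD, n = 4) and at 9 w (34.2 ± 2.49 CPM, SD, n = 3), Col1a1 changed by −0.82 on the log2 scale (standard error 0.16, edgeR adjusted p = 0.00586). With any 1 of these 7 mice left out, the log2 fold change was between −1.03 and −0.75 and remained past both limits.

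Col1a2 (ENSMUSG00000029661; chromosome 6, from 4504814 to 4541544), the partner chain, changed less. It was measured at 50.0, 61.0 and 65.9 CPM with AAV-shA4 and at 55.0, 54.0 and 57.2 CPM without treatment in WT mice at 9 w. In the untreated WT mice at 25 w it was at 42.0, 43.1, 46.7 and 40.1 CPM. In SCA7 mice it was at 43.0, 40.2, 49.4, 43.5 and 41.8 CPM with AAV-shA4 and at 39.3, 49.0, 46.1, 42.8 and 38.4 CPM with AAV-shSCR. As for Col3a1, the highest late mouse (49.4 CPM) was below the lowest early mouse (50.0 CPM), here by a narrow margin. Between untreated WT mice at 25 w (43.0 ± 2.80 CPM, SD, n = 4) and at 9 w (55.4 ± 1.64 CPM, SD, n = 3), Col1a2 differed by −0.36 on the log2 scale (standard error 0.052, edgeR adjusted p = 0.00151), which is just short of a fold change of 1.3, the limit used here. Without replicate 2 of the mice at 9 w or replicate 3 of the mice at 25 w, the values of −0.38 and −0.41 passed that limit. Col1a2 and Col3a1 make 2 of the 10 genes with all late below all early mice, a separation that 2.94% of 14643 genes showed in this direction (431 genes).

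In cerebella taken whole, fewer cells of a type and less RNA per cell cannot be told apart. Between the untreated WT groups the log2 fold changes of the 35 other fibroblast genes had their median at −0.011, and Dcn and Ogn had −0.050 and 0.21, beside −1.06 for Col3a1. The 35 genes are not all particular to fibroblasts, Gjb6 being also a gene of astrocytes. Whether the early and late mice were handled and sequenced together is not stated, so age, time since injection and handling cannot be told apart either.

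Col6a5 (ENSMUSG00000091345; chromosome 9, from 105856078 to 105960643), a chain of type VI collagen, behaved unlike the other 9 genes. It had 39, 52 and 48 counts in AAV-shA4-treated WT mice at 9 w, or 1.06, 1.37 and 1.36 CPM, and 10, 2 and 5 counts in untreated ones, or 0.215, 0.0435 and 0.104 CPM. All 3 treated mice were above all 3 untreated mice, a lack of overlap that 16.0% of all genes tested showed in either direction. Col6a5 passed the filter on low counts in this comparison through the treated mice, so a difference was needed for it to be tested there (edgeR adjusted p = 0.0210), and that call supports nothing by itself. The means were 1.26 ± 0.176 and 0.121 ± 0.0870 CPM (SD, n = 3 each). Without a count filter, where no high group was needed, the log2 fold change was 3.35 (edgeR adjusted p = 0.00473). Both fits use the same counts of Col6a5, so the fit without the filter is no independent support. With the filter, the adjusted p rose to 0.0979 without AAV-shA4 replicate 2, to 0.0937 without untreated replicate 3 and to 0.139 in 1 fit over all 20 libraries, over a range of log2 fold changes of 2.97 to 4.03 with 1 mouse left out.

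In the late groups Col6a5 differed from mouse to mouse. The 4 untreated WT mice had 0.375, 0.159, 1.67 and 1.21 CPM. AAV-shA4-treated SCA7 mice had 0.688, 0.933, 1.06, 0.0317 and 0.176 CPM, and AAV-shSCR-treated SCA7 mice 0.737, 0.340, 0, 0.0290 and 0.343 CPM. The mouse with 0 counts is compatible with up to 3 counts, or 0.0737 CPM, by counting error alone. High and low mice occur in each late group, and the 3 groups overlap. The SD was 83.0% of the mean in untreated WT mice, 78.8% with AAV-shA4 and 103% with AAV-shSCR, against at most 26.9% for any other of the 10 genes in any group. Between untreated WT mice at 25 w and at 9 w Col6a5 again passed the filter through the higher group alone, by replicates 1, 3 and 4 at 25 w, so it had to differ to be tested (edgeR adjusted p = 0.0341). Without a count filter the log2 fold change in the same mice was 2.79 (edgeR adjusted p = 0.0280). Replicate 2 at 25 w (0.159 CPM) was nevertheless below replicate 1 at 9 w (0.215 CPM). With the filter and without replicate 1, 2 or 3 at 9 w the values were 3.47, 2.40 and 2.69 and the call was lost (edgeR adjusted p = 0.0577, 0.105 and 0.0994), and without replicate 1, 3 or 4 at 25 w the gene no longer passed the filter.

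The genes whose level followed that of Col6a5 most closely from mouse to mouse are on none of the fibroblast and collagen lists used here. After each gene's log2 level was centred within its group, the 8 genes with the highest Pearson r with Col6a5 over the 20 mice, looked up after its values had been seen, were Zfp474 (0.92), Stk33 (0.91), Cdhr3 (0.86), Rgs22 (0.86), Gm867 (0.84), Ccdc153 (0.82), Ak7 (0.81) and Tcte1 (0.80). Ak7 codes for an adenylate kinase of motile cilia, and Ccdc153 belongs to a list of 8 genes of ependyma, the ciliated lining of the ventricles. The r of the 8 list genes with Col6a5 had a median of 0.51 and ran from 0.24 (Rsph1) to 0.82 (Ccdc153), while that of the other 9 genes described here had a median of −0.01 and did not exceed 0.12. Over all 14642 other genes the median was 0. These r are descriptions and carry no test.

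The ependyma list summed to 33.6, 33.1 and 34.9 CPM in AAV-shA4-treated and to 21.3, 19.8 and 28.2 CPM in untreated WT mice at 9 w. At 25 w the sums were 29.2, 22.7, 33.8 and 37.4 CPM in untreated WT mice. The SCA7 mice had 37.3, 29.6, 27.1, 18.5 and 32.0 CPM with AAV-shA4 and 26.3, 28.9, 22.7, 23.4 and 29.3 CPM with AAV-shSCR. In the early mice the groups that separate for Col6a5 also separate for this list, and in untreated WT mice at 25 w the pair of mice with high Col6a5, replicates 3 and 4, also had the highest sums. In the SCA7 groups the lowest mice were shared but the highest were not. The lowest Col6a5 with AAV-shA4 (replicate 4) and the 2 lowest with AAV-shSCR (replicates 3 and 4) went with the lowest sums. With AAV-shA4 the mouse with the highest Col6a5 (replicate 3) had a sum of 27.1 CPM and replicate 5, with low Col6a5, one of 32.0 CPM, and with AAV-shSCR replicate 1, the highest in Col6a5, was below replicates 2 and 5 in the sum. The most abundant gene, Foxj1, the transcription factor of motile cilia, ranged from 9.24 to 17.8 CPM, and none of the 8 genes was at 0 in all libraries. All 8 genes had positive log2 fold changes with AAV-shA4 at 9 w (median 0.77). Ccdc153 was called as higher (1.77, standard error 0.25, edgeR adjusted p = 0.0352), beside 0.0475% of all genes tested. In untreated WT mice at 25 w against 9 w all 8 were positive (median 0.81). Dnah9 and Spag6l were called as higher (1.01 and 0.73, edgeR adjusted p = 0.00397 and 0.0390), beside 3.23% of all genes tested. Both comparisons use the same 3 untreated WT mice at 9 w, so their values cannot be read as independent. The part of ependymal tissue in the level of Col6a5 was not tested.

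**Figure D2:**
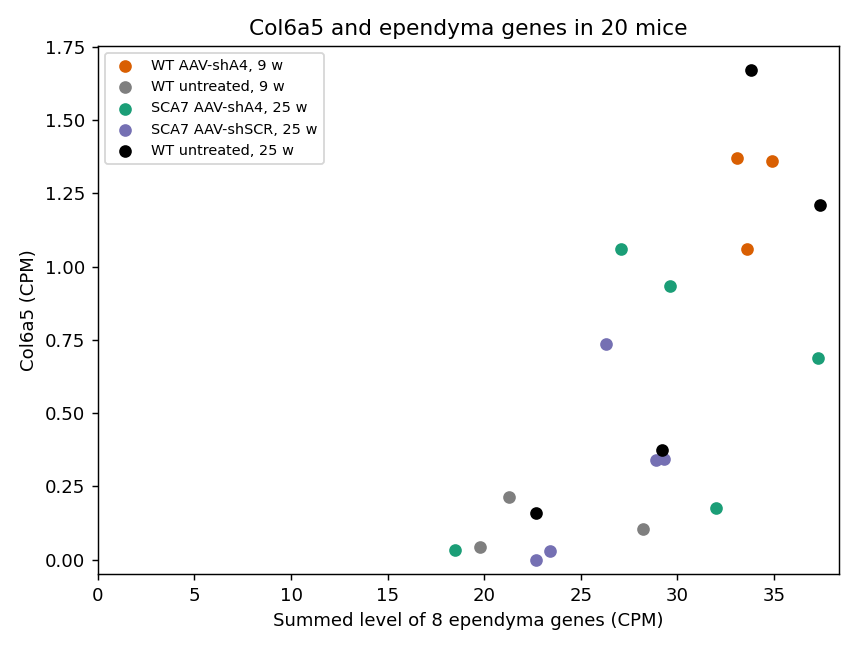
The level of Col6a5 (vertical axis, CPM) is plotted against the summed level of 8 ependyma genes (horizontal axis, CPM) for 20 mice, with 1 point per mouse, coloured by group. The 3 AAV-shA4-treated WT mice at 9 w lie at 33.1 to 34.9 CPM of the list with Col6a5 at 1.06 to 1.37 CPM, and the 3 untreated ones at 19.8 to 28.2 CPM with Col6a5 at or below 0.215 CPM.

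Col6a5 lies between the genes of 2 other type VI chains, Col6a6 at 27918 bp and Col6a4 at 28811 bp, which averaged 0.659 and 0.525 CPM. Their r with Col6a5 over the 20 mice was −0.13 and −0.11. Col6a4 was called as higher in both SCA7 groups against untreated WT mice at 25 w (0.298 ± 0.150 CPM, SD, n = 4). It stood at 0.783 ± 0.172 CPM with AAV-shSCR and at 0.707 ± 0.153 CPM with AAV-shA4 (SD, n = 5 each). The log2 fold changes were 1.43 and 1.27 (edgeR adjusted p = 0.00641 and 0.0154). Col6a4 passed the filter on low counts through the SCA7 mice, where it was high, so these calls support nothing by themselves. In the same comparisons Col6a5 had log2 fold changes of −1.57 and −0.54 (edgeR adjusted p = 0.216 and 0.703). Whether the chains differ in this was not tested.

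Of the leucine-rich matrix genes Lum, Dcn and Ogn, edgeR called none in any of the 5 comparisons, and DESeq2 called Lum in 1. Lum (ENSMUSG00000036446; chromosome 10, from 97565128 to 97572703) codes for a keratan sulfate proteoglycan that spaces collagen fibrils. It was measured at 7.01, 5.81 and 6.55 CPM in AAV-shA4-treated and at 5.12, 3.68 and 5.58 CPM in untreated WT mice at 9 w. At 25 w it was at 6.38, 5.92, 6.08 and 7.43 CPM in untreated WT mice. SCA7 mice had 5.44, 4.38, 5.71, 4.86 and 5.44 CPM with AAV-shA4 and 4.87, 6.86, 6.19, 6.35 and 5.28 CPM with AAV-shSCR. The 3 untreated WT mice at 9 w lay below the 3 treated ones and below the 4 untreated ones at 25 w, and the 5 AAV-shA4-treated SCA7 mice also lay below those 4, without overlap in any of these pairs of groups. Such a lack of overlap, in either direction, was found for 16.0%, 33.8% and 13.4% of all genes in these comparisons. None of the differences passed the adjusted limit. The log2 fold change was 0.43 with AAV-shA4 at 9 w (standard error 0.16, edgeR adjusted p = 0.364), 0.43 in untreated WT mice at 25 w against 9 w (standard error 0.15, edgeR adjusted p = 0.0579) and −0.32 in AAV-shA4-treated SCA7 against untreated WT mice (standard error 0.11, edgeR adjusted p = 0.0633). With DESeq2 and in 1 fit over all 20 libraries the difference between the untreated WT groups passed, with adjusted p of 0.0287 and 0.0291, and so it did with edgeR when replicate 3 at 9 w was left out (0.55, edgeR adjusted p = 0.0420).

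Dcn (ENSMUSG00000019929; chromosome 10, from 97479609 to 97518143), a proteoglycan that binds collagen fibrils and TGF-beta, had group means from 34.9 ± 2.43 CPM in untreated WT mice at 25 w (SD, n = 4) to 38.8 ± 4.65 CPM in AAV-shA4-treated WT mice (SD, n = 3), with single mice between 28.0 and 45.6 CPM, both of them untreated WT mice at 9 w. Ogn (ENSMUSG00000021390; chromosome 13, from 49608046 to 49624501) ranged from 15.1 CPM in an untreated WT mouse at 9 w to 26.8 CPM in an AAV-shA4-treated SCA7 mouse. Its group means were 20.2 ± 2.99 and 18.0 ± 2.62 CPM with and without AAV-shA4 at 9 w (SD, n = 3 each). At 25 w they were 22.1 ± 3.51 and 21.2 ± 2.38 CPM in SCA7 mice with AAV-shA4 and with AAV-shSCR (SD, n = 5 each) and 20.7 ± 3.06 CPM in untreated WT mice (SD, n = 4). All groups overlapped for both genes. Between untreated WT mice at 25 w and 9 w the 95% confidence interval of the log2 fold change was −0.34 to 0.24 for Dcn and −0.067 to 0.48 for Ogn, neither of which reaches the value of Col3a1 (−1.06), while that of Dcn comes near the value of Col1a2 (−0.36). Whether these genes differ from the collagens in their change was not tested.

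Slc6a13 (ENSMUSG00000030108; chromosome 6, from 121300227 to 121337733) codes for a transporter of GABA and taurine, and Slc22a6 (ENSMUSG00000024650; chromosome 19, from 8618039 to 8628299) for an organic anion transporter. Slc6a13 was at 14.8, 17.2 and 16.2 CPM with AAV-shA4 and at 16.8, 16.0 and 20.1 CPM without treatment in WT mice at 9 w, and at 17.4, 19.4, 14.7 and 17.5 CPM in untreated WT mice at 25 w. SCA7 mice had means of 14.8 ± 1.99 CPM with AAV-shA4 and 16.0 ± 3.37 CPM with AAV-shSCR (SD, n = 5 each), and all groups overlapped. The lowest mice, at 12.4 CPM, were replicates 1 and 5 of the AAV-shSCR group, whose highest mouse reached 19.8 CPM. Slc22a6 was between 11.1 and 15.3 CPM in the 6 early mice and between 8.61 and 14.5 CPM in the 14 late mice. It was at 13.4, 14.5, 11.2 and 13.1 CPM in untreated WT mice at 25 w and at 10.3, 10.6, 12.3, 12.3 and 8.65 CPM in AAV-shA4-treated SCA7 mice. These groups overlapped, with a log2 fold change of −0.27 (standard error 0.13, edgeR adjusted p = 0.192).

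Igf2 (ENSMUSG00000048583; chromosome 7, from 142650766 to 142666816), an imprinted growth factor gene, was measured with 107 to 258 counts per mouse. Of its exonic bases 62.8% are shared with the gene model Gm49394 on the same strand, and 2127 bp are its own. Reads on the shared bases may have been left uncounted, so its level may be too low. Igf2 was at 3.48, 4.42 and 5.70 CPM with AAV-shA4 and at 4.30, 4.55 and 3.85 CPM without treatment in WT mice at 9 w. It was at 4.31, 4.83, 4.20 and 6.06 CPM in untreated WT mice at 25 w. SCA7 mice had 5.73, 4.02, 5.04, 3.40 and 4.64 CPM with AAV-shA4 and 3.33, 5.64, 5.23, 5.37 and 3.72 CPM with AAV-shSCR. The groups overlapped, and the highest mouse of all (6.06 CPM) stood 1.82 times above the lowest (3.33 CPM).

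**Figure D3:**
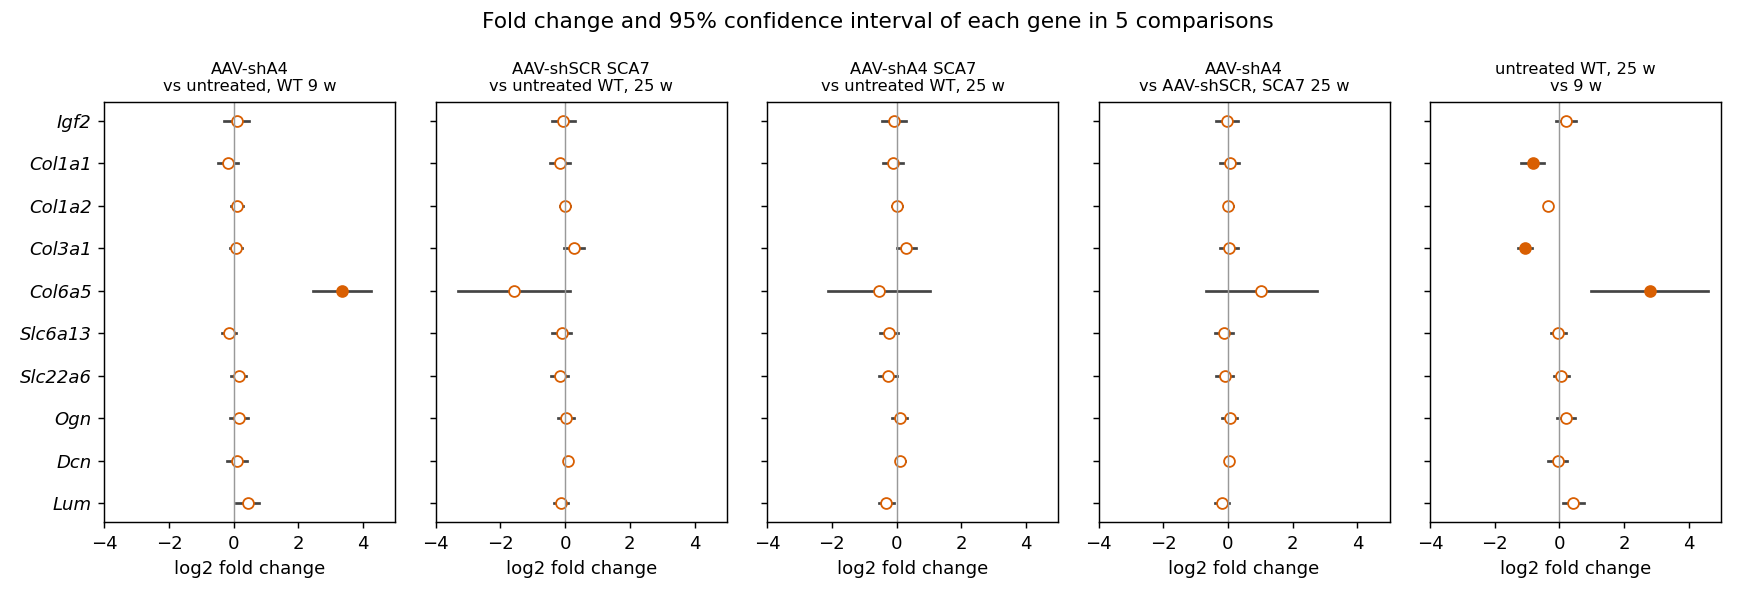
Each panel shows 1 comparison, with the log2 fold change on the horizontal axis and the 10 genes on the vertical axis. Circles are estimates from edgeR, lines their 95% confidence intervals, and filled circles the genes called. Col6a5 is filled in the first panel (3.35), Col1a1 (−0.82), Col3a1 (−1.06) and Col6a5 (2.79) in the last, and no gene in the other panels. In the first and the last panel Col6a5 passed the count filter through its higher group alone.

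In WT mice at 9 w, AAV-shA4 left 9 of the 10 genes uncalled. Calls required both a fold change of more than 1.3, up or down, and an adjusted p below 0.05. Col6a5 was the 1 gene called, beside 8 of 14733 genes (0.0543%) in the whole comparison, and since it had to differ to pass the filter, this count is no support. The other 9 genes had log2 fold changes between −0.18 (Col1a1) and 0.43 (Lum), and 95% confidence intervals within −0.49 and 0.77. Of the 10 genes 8 were higher with the vector, and their median log2 fold change was 0.097, against −9.9e-05 over all genes. Of the 35 other fibroblast genes 23 were higher and 12 lower (median 0.052), and 0 were called by edgeR.

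In AAV-shSCR-treated SCA7 mice against untreated WT mice, 0 of the 10 genes were called by edgeR, 0 by DESeq2, and 0 had an unadjusted p under 0.05, beside 597 of 14862 genes called (4.02%) and 28.7% of genes with an unadjusted p under 0.05. Without Col6a5, the largest log2 fold change was that of Col3a1 (0.28, standard error 0.14, edgeR adjusted p = 0.207). Leaving out AAV-shSCR replicate 5, which had the lowest Col3a1 of the group (5.52 CPM), brought Col3a1 past both limits at 0.38 (edgeR adjusted p = 0.0440). The intervals of the 9 genes lay within −0.46 and 0.57. The median log2 fold change was −0.082 for the 10 genes, with 6 of them negative, and 0.0017 over all genes. The list of 8 cerebellar neuron genes had a median of −0.39 in the same comparison, with 4 called as lower, of which Grm4 (−0.76), Car8 (−0.49) and Calb1 (−0.46) changed most.

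In AAV-shA4-treated SCA7 mice against the same 4 untreated WT mice, again 0 of the 10 genes were called by edgeR and 0 by DESeq2, beside 513 of 14862 genes (3.45%). An unadjusted p under 0.05, found for 26.6% of all genes, was found for Lum and for Col3a1 (8.05 ± 1.11 CPM, SD, n = 5, log2 fold change 0.30, edgeR adjusted p = 0.181). The 10 genes had a median of −0.089 with 6 negative, against 0.0061 over all genes. Because both SCA7 groups were compared with the same WT mice, their values cannot be read as independent.

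Between AAV-shA4 and AAV-shSCR in SCA7 mice, 0 of the 10 genes were called by edgeR and 0 by DESeq2, and 0 had an unadjusted p under 0.05. Of all 14862 genes, 0 (0%) were called by edgeR, 1222 had an unadjusted p under 0.05 and DESeq2 called 4. Without Col6a5, the log2 fold changes lay between −0.19 (Lum) and 0.058 (Ogn), and the 95% confidence intervals between −0.41 and 0.35. The median was 0.019 for the 10 genes, with 6 positive, and 0.00021 over all genes. Col6a5 had a log2 fold change of 1.03 with a confidence interval of −0.69 to 2.76, so that a difference of several fold would not have been detected.

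Between untreated WT mice at 25 w and at 9 w, 3 of the 10 genes were called, beside 764 of 14875 genes (5.14%). Col1a1 and Col3a1 were 2 of 284 genes called as lower (1.91%), and Col6a5 was 1 of 480 called as higher (3.23%), a count that is no support since Col6a5 had to differ to pass the filter. DESeq2 called 4, with Lum added. The median of the 10 genes, 0.016, was close to that of all genes (0.0059) with Col1a1, Col1a2, Col3a1, Slc6a13 and Dcn negative and 5 genes positive. The 35 other fibroblast genes had a median of −0.011 with 0 called. As higher, 2 passed the adjusted limit without the fold limit, beside 23.0% of all genes tested that passed it in either direction.

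Some other collagen chains also differed between the WT groups. Of a list of 23, 5 were called as lower at 25 w and 0 as higher, although 14 had positive values (median 0.072). Of all genes tested, 1.91% were called as lower and 3.23% as higher. Whether the chains changed as a set was not tested. As higher, 2 passed the adjusted limit alone, the fibrillar chains Col5a1 (0.28, edgeR adjusted p = 0.0305) and Col5a3 (0.23, edgeR adjusted p = 0.0480), while Col6a1 passed it as lower (−0.33, edgeR adjusted p = 0.0312), all named after their values were seen. The 3 called chains with the largest changes were Col4a1 and Col4a2, the chains of the vascular basement membrane, and Col15a1. Col4a1 was at 25.8 ± 2.32 CPM at 25 w (SD, n = 4) and 46.7 ± 3.64 CPM at 9 w (SD, n = 3), a log2 fold change of −0.85 (standard error 0.076, edgeR adjusted p = 0.000160), while Col4a2 fell by 0.71 (edgeR adjusted p = 0.00378) and Col15a1 fell by 0.58 (edgeR adjusted p = 0.0187). Col5a2, which lies 24615 bp from Col3a1 and codes for a chain that joins type I fibrils, fell by 0.39 (edgeR adjusted p = 0.0170) and Col6a2 by a similar 0.41 (edgeR adjusted p = 0.0451), both named, after their values were seen, as the remaining called chains. In a list of 18 other proteoglycans and matrix proteins, elastin (Eln, −0.67) and nidogen 1 (Nid1, −0.64) were called as lower (edgeR adjusted p = 0.00404 and 6.28e-05), beside 1.91% of all genes tested. The leucine-rich proteoglycan gene Bgn (−0.34, edgeR adjusted p = 0.0154) and the fibulin gene Fbln1 (−0.29, edgeR adjusted p = 0.0244), named after their values were seen, passed the adjusted limit alone. None of 21 genes of collagen processing and crosslinking was called by edgeR and 3 passed the adjusted limit alone, all lower, beside 23.0% of all genes tested that passed it, called or not. The list's most abundant gene was Sparc at a mean of 969 CPM.

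Some collagen chains were also called in SCA7 mice. Of the 23 chains, 2 were called as higher and 3 as lower with AAV-shSCR, and 1 as higher and 3 as lower with AAV-shA4, each against untreated WT mice at 25 w. Of all genes tested, 1.35% were called as higher and 2.66% as lower with AAV-shSCR, and 1.18% and 2.27% with AAV-shA4. Col6a4, counted as higher in both groups, passed the count filter through the SCA7 mice, so its calls are no support. Beside Col6a4, the largest changes among the called chains were those of Col5a1 (−0.97 and −1.03, edgeR adjusted p = 1.52e-06 and 9.72e-07) and Col18a1 (−0.69 and −0.68, edgeR adjusted p = 5.30e-07 and 8.32e-07), with AAV-shSCR named first. The other called chains, named after their values were seen, were Col17a1 (0.54) and Col15a1 (−0.42) with AAV-shSCR and Col13a1 (−0.43) with AAV-shA4. With AAV-shA4, Col4a1 and Col4a2 passed the adjusted limit alone as higher (0.37 and 0.36, edgeR adjusted p = 0.0325 and 0.0419) and Col11a2 as lower (−0.29, edgeR adjusted p = 0.0229), while with AAV-shSCR Col12a1 did so as higher (0.35, edgeR adjusted p = 0.00423), all named after their values were seen. Col18a1 was also the most abundant chain of the list, with a mean of 115 CPM. Of the 35 other fibroblast genes 1, Cemip, a hyaluronan-binding protein, was called as higher in both groups (0.51 and 0.39, edgeR adjusted p = 3.03e-05 and 0.000509). Plod2, a lysyl hydroxylase, was called as higher with AAV-shSCR (0.38, edgeR adjusted p = 0.000384). Of the 18 other matrix genes, 0 were called by edgeR in either group and 0 passed the adjusted limit alone, with Fn1 as the most abundant at a mean of 98.9 CPM.

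Over the 20 mice, the genes other than Col6a5 tended to vary together around their group means. With log2 levels centred in each group, the Pearson r of all 36 pairs among the 9 genes other than Col6a5 was positive, with a median of 0.46 and a range of 0.15 to 0.81. The 9 pairs with Col6a5 had a median r of −0.01. In AAV-shSCR-treated SCA7 mice, replicate 2 was the highest of the group in 7 of the 9 genes and replicate 5 the lowest in 7. In AAV-shA4-treated WT mice replicate 3 was the highest in 7 and replicate 1 the lowest in 8. In untreated WT mice at 25 w no mouse was the highest in more than 3 of the 9 genes, and replicate 3 was the highest in 2 and the lowest in 5.

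The relation to Col1a2 was tested for each of the other 9 genes over the 20 mice, by permutation within groups (2-sided, 100000 permutations, 9 relations adjusted together). Col1a1 had a Pearson r of 0.81 (permutation p = 0.00055, adjusted 0.0049) and a Spearman rho of 0.78 (permutation p = 0.00076, adjusted 0.0068). Its r was 0.97 in the 6 early mice, 0.73 in the 14 late mice and 0.79 without the 2 mice farthest from the median of Col1a2, which are AAV-shA4 replicate 1 at 9 w and AAV-shSCR replicate 2. The chains of type I collagen thus rose and fell together between mice of a group. Slc22a6 had an r of 0.59 (permutation p = 0.021, adjusted 0.071) and a rho of 0.64 (permutation p = 0.011, adjusted 0.049), so that 1 of the measures passed. Ogn had an r of 0.54 (permutation p = 0.024, adjusted 0.071) and a rho of 0.55 (permutation p = 0.020, adjusted 0.060), and Col3a1 an r of 0.52 (permutation p = 0.048, adjusted 0.11) and a rho of 0.49 (permutation p = 0.064, adjusted 0.14). The r of Igf2 (0.53), Slc6a13 (0.43), Lum (0.31) and Dcn (0.30) was positive with adjusted p of 0.12 to 0.20, and that of Col6a5 was −0.01 (adjusted p = 0.98).

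The 8 genes most like the mean profile of the 10 genes, by Pearson r over the 20 mice, were Bgn (0.89), Efemp1 (0.88), Fmod (0.88), Fxyd5 (0.86), Crabp2 (0.84), Slc6a20a (0.83), A4galt (0.83) and Aebp1 (0.82). Bgn and Fmod code for further leucine-rich proteoglycans, and Crabp2 and Slc6a20a are among the 35 other fibroblast genes. Neighbours on the chromosome also varied with some of the genes. Slc22a6 lies 6204 bp from Slc22a8, an anion transporter gene of the same family (r = 0.73), and Slc6a13 lies 5343 bp from Slc6a12, a betaine and GABA transporter gene (r = 0.75). Ogn lies 15224 bp from Omd (r = 0.55), and Dcn and Lum are neighbours 46985 bp apart (r = 0.49). Casd1, the neighbour of Col1a2, had an r of −0.57 with it, and Sgca, the neighbour of Col1a1, an r of −0.09.

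The amount of RNA from choroid plexus differed widely between mice of a group. A list of 12 genes of choroid plexus epithelium summed to between 54.3 CPM, in AAV-shA4-treated SCA7 replicate 2, and 4000 CPM, in untreated WT replicate 4 at 25 w, a ratio of 73.8. Its most abundant gene, Ttr, ranged from 21.6 to 3590 CPM, and 0 of the 12 genes were at 0 in all libraries. The sums were 997, 1870 and 678 CPM with AAV-shA4 and 912, 1380 and 2020 CPM without at 9 w, and 1220, 1100, 1870 and 4000 CPM in untreated WT mice at 25 w. SCA7 mice had 3420, 54.3, 552, 358 and 3030 CPM with AAV-shA4 and 682, 3040, 2020, 2100 and 1830 CPM with AAV-shSCR. The mouse with almost no choroid plexus RNA was the lowest of its group in Col1a2 (40.2 CPM) and Lum (4.38 CPM) and the highest in Dcn (42.7 CPM), Slc6a13 (17.4 CPM) and Col3a1 (9.02 CPM). Of the 10 genes, Lum (0.50) and Igf2 (0.47) had the highest r with the centred choroid plexus sum over the 20 mice, and the other 8 lay between −0.25 and 0.15, given here as descriptions. All 12 list genes had positive log2 fold changes in untreated WT mice at 25 w against 9 w (median 0.58), where Lum had 0.43. Replicate 4 at 25 w had 4000 CPM there, against at most 1870 CPM in the other mice of its group. All 12 were negative in AAV-shA4-treated SCA7 against untreated WT mice (median −0.59), where Lum had −0.32. With AAV-shA4 at 9 w, 10 of the 12 were negative (median −0.19), while Lum had 0.43. In each of these comparisons 0 of the 12 genes were called and 0 passed the adjusted limit. The part of choroid plexus in the levels of Lum and Igf2 was not tested.

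The sums of vascular and border macrophage genes ranged less between mice than that of choroid plexus, although some vascular genes were called. The sum of 12 endothelial genes ranged from 416 to 507 CPM (most abundant Slc2a1), that of 11 pericyte and smooth muscle genes from 270 to 357 CPM (most abundant Vtn) and that of 7 border macrophage genes from 12.3 to 19.9 CPM (most abundant Mrc1). In untreated WT mice at 25 w against 9 w, the endothelial and macrophage lists had medians of −0.13 and −0.31, and Acta2 of smooth muscle was called as lower (−0.55, edgeR adjusted p = 0.0232). In both SCA7 groups Cldn5 was called as lower and Emcn as higher, and Kcnj8 of pericytes was called as lower with AAV-shSCR (−0.40). Blood cell genes (5, most abundant Hbb-bs) summed to 27.0 and 16.2 CPM in AAV-shSCR replicates 1 and 4 and to at most 10.2 CPM in any other mouse, with a median log2 fold change of 1.5 with AAV-shSCR against untreated WT mice and Hbb-bs called as higher (1.81). All 5 were lower in untreated WT mice at 25 w than at 9 w (median −0.87), with Hba-a1 (−1.17), Hbb-bt (−1.07) and Hbb-bs (−0.87) called, beside 1.91% of all genes tested called as lower. With AAV-shA4 at 9 w all 5 had negative values against the same untreated mice (median −0.8), and 0 were called. The part of blood in the change of the collagens was not tested. AAV-shSCR replicates 1 and 4 had Col1a1 at 15.3 and 19.3 CPM, within their group. Of 7 bone and cartilage genes (most abundant Dmp1, sums of 26.6 to 38.5 CPM) and 7 genes of Schwann cells (most abundant Mbp, which oligodendrocytes also express, sums of 2280 to 4200 CPM), Ngfr was called as higher in untreated WT mice at 25 w and with AAV-shSCR, Phex as higher in both SCA7 groups and Alpl as lower with AAV-shA4 (−0.63).

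Because Col1a2 and Col3a1 were lower together in the late mice, the sequence before their RefSeq starts is shown (GRCm38.p6). RefSeq windows were found for 7 of the 10 genes (Col1a2, Col3a1, Col6a5, Igf2, Ogn, Slc6a13 and Slc22a6). Of the 250 bases before each start, those that GENCODE places in an exon were left out, which leaves all 250 bases for Col3a1 (chr1:45311288-45311537, plus strand) and 123 for Col1a2 (chr6:4505370-4505492, plus strand). RefSeq starts Col1a2 further along than GENCODE does, so these 123 bases lie before the RefSeq start but within the gene as placed above. The letters CCAAT and TATAAA were searched on both strands and are in capitals where found.
Col3a1: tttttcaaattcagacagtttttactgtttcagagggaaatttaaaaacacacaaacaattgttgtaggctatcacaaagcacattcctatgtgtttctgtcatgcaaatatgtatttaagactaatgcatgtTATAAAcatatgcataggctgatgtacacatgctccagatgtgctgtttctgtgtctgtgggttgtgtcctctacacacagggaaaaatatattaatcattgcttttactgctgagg
Col1a2: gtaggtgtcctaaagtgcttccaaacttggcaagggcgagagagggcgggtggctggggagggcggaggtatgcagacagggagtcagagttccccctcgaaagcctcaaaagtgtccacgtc
The Col3a1 window holds 1 TATAAA and 0 CCAAT. The full 250 bases of Col1a2 hold 1 CCAAT, in the part left out here, and 0 TATAAA. Among 32851 such windows of mouse genes, 33.8% hold CCAAT and 12.4% hold TATAAA. The windows thus share neither of these motifs.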

How the data were processed

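The authors trimmed and filtered the reads, removed ribosomal RNA, mapped the rest to GRCm38 and assigned them to Ensembl genes. The submitters' processing notes name cutadapt 1.10, Bowtie2 2.2.8, STAR 2.5.3a and HTSeq 0.6.1p1, and the counting strand is not stated. The deposited table holds raw counts of reads per gene for 20 libraries, as the authors made it.

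Tests used edgeR 4.0.16 in R 4.3.3 on protein-coding genes (TMM, filterByExpr with minimum count 10 and total 15, quasi-likelihood, Benjamini-Hochberg over all genes tested), in separate fits of the 6 early libraries, the 14 late libraries and the 7 libraries of untreated WT mice. DESeq2 1.42.0 was an alternative. Fold changes come from these fits, CPM from a common TMM scale over 20 libraries, and correlations use log2(CPM + 0.1). All 10 genes passed the count filter in each fit, Col6a5 in the early and untreated WT fits through its higher group alone, so its values there are given also without the filter. Methods were tested on simulated data. Mice of a group differed by more than counting noise in each of 32 pairs (4.87 to 26.1, chi-squared over its degrees of freedom).

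The named genes are the 10 genes, the most abundant and, per comparison, at most 3 called genes of each of 13 marker lists, and the 8 genes most like the mean profile. Others, such as the remaining called chains, those passing the adjusted limit alone, the genes most like Col6a5 and neighbours, were named after their values were seen. The members and lists were chosen with earlier results of these data known.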

Additional observations from a re-analysis of the deposited data

Results flagged for a closer look

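Col1a1 in untreated WT replicate 3 at 25 w, at 27.2 CPM, stood far from the other 3 mice of its group (16.6 to 17.0 CPM). Its gap to the nearest mouse was 0.959 of the range of the group. This mouse also had the highest Col1a2 of the group (46.7 CPM) and the highest Col6a5 (1.67 CPM), and Col3a1 at 6.20 CPM, within the range of the group. Of 30 combinations of gene and group with 4 or 5 mice this was the 1 that stood out, and chance flags about 1 in 20 groups.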

How the results depend on the processing

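Of 707 log2 fold changes of the 10 genes under the alternatives, 655 kept their direction and their side of the limits, 7 fell short of the limits, 6 passed them and 39 changed sign. The alternatives were RLE size factors, DESeq2, no count filter, all annotated genes, 1 fit over 20 libraries, a replicate block and leaving out each mouse. Adjusted p alone was a further alternative for the numbers of genes called and is not part of the 707. By that rule Col1a2 also passes between the untreated WT groups (edgeR adjusted p = 0.00151). Col1a1 and Col3a1 in untreated WT mice at 25 w against 9 w kept their call throughout, with ranges of −1.03 to −0.75 and −1.14 to −1.0 when 1 mouse was left out.

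The number of genes called with AAV-shA4 at 9 w (8) depended most on the processing. It was 53 with DESeq2, 26 without count filter, 16 with all annotated genes and 20 in 1 fit over 20 libraries, where 0 of the 10 genes were called. Without 1 mouse it ranged from 1 to 43 (6, 1 and 43 without AAV-shA4 replicates 1, 2 and 3, and 9, 4 and 2 without untreated replicates 1, 2 and 3), and 0 to 1 of the 10 genes were called, with Col6a5 lost without AAV-shA4 replicate 2 or untreated replicate 3. Between AAV-shA4 and AAV-shSCR DESeq2 called 4 genes and edgeR 0. By adjusted p alone, 2309 genes passed with AAV-shSCR and 2018 with AAV-shA4 against untreated WT mice at 25 w, and 3419 between the untreated WT groups. Against untreated WT mice, 0 to 1 of the 10 genes were called with AAV-shSCR (Col3a1, without AAV-shSCR replicate 5). The r of Col6a5 with Col1a2 was 0.09 with a pseudocount of 1 CPM and −0.01 with 0.1 CPM. The cause was not tested.

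Replicate numbers were checked for pairing. The r between replicates of the same number was low in most pairs (0.54 and 0.26 for replicates 1 and 2 of AAV-shA4-treated SCA7 against untreated WT mice, 0.022 and −0.018 for replicates 3 and 4), so mice were not paired. With a replicate block 37 genes were called with AAV-shA4 at 9 w, and Col6a5 in untreated WT mice at 25 w against 9 w was no longer called (2.33, edgeR adjusted p = 0.0629).

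The changes of sign without 1 mouse concern log2 fold changes that were not called. At 9 w the ranges were −0.103 to 0.252 for Igf2, −0.000566 to 0.193 for Col1a2 and −0.0501 to 0.303 for Dcn. In untreated WT mice at 25 w against 9 w they were −0.0959 to 0.0733 for Slc6a13, −0.0167 to 0.141 for Slc22a6 and −0.202 to 0.150 for Dcn. With AAV-shA4 against untreated WT mice they were −0.177 to 0.0422 for Igf2, −0.169 to 0.111 for Col1a1, −0.0300 to 0.0618 for Col1a2 and −0.872 to 0.0222 for Col6a5. With AAV-shSCR against untreated WT mice they were −0.132 to 0.0684 for Igf2, −0.221 to 0.0608 for Col1a1, −0.0454 to 0.0478 for Col1a2 and −0.0357 to 0.130 for Ogn. Between AAV-shA4 and AAV-shSCR they were −0.123 to 0.0608 for Igf2, −0.0376 to 0.124 for Col1a1, −0.0342 to 0.0645 for Col1a2, −0.0809 to 0.0948 for Col3a1, −0.0179 to 0.128 for Ogn and −0.00723 to 0.0688 for Dcn.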
